A study of Mus musculus with 19 samples.

Results

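Platelet and megakaryocyte genes were followed in blood leukocyte RNA of mice given CAWS, the water-soluble fraction of Candida albicans, a mannoprotein and beta-glucan complex that induces vasculitis. The genes were Pf4, Ppbp, Itga2b, Itgb3, Gp1bb, Gp9, Gp5, Treml1 and Clec1b, a set fixed by name. All probes whose gene name or older synonym on the array was one of them were taken, which gave 10 probes for the 9 genes among 41174 probes. Pf4 is listed on the array under its older name Cxcl4. Itgb3 has 2 probes and every other gene has 1, and each gene is given by its brighter probe unless stated otherwise.

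Male B6 mice, in which CAWS induces mild vasculitis, and male DBA/2 mice, in which the vasculitis is lethal, were 5 to 14 weeks old. CAWS was injected intraperitoneally on consecutive days, and 0 w is defined as right after the last injection. The labels name no dose for a sample and no group without CAWS, so that 0 w is a reference taken after the injections. Surviving mice were sacrificed between 2 w and 9 w, and leukocytes were held back from whole blood on a LeukoLOCK filter before the RNA was isolated. The 10 groups are each strain at 0 w and at 4 later times (2, 4, 8 and 9 w), with 2 RNA samples in 8 groups and a single one for B6 2 w and for B6 9 w.

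Platelets are fragments shed by megakaryocytes and carry a limited store of their RNA. They stop bleeding, and at an inflamed vessel wall they bind to endothelium and leukocytes and release chemokines. Pf4 (CXCL4) and Ppbp, which is cleaved to CXCL7, are chemokines of the alpha granule. Itga2b and Itgb3 encode the 2 chains of the fibrinogen receptor integrin alphaIIb-beta3. Gp1bb, Gp9 and Gp5 encode subunits of the GPIb-IX-V complex, the receptor for von Willebrand factor. Treml1 (TLT-1) is a receptor stored in alpha granules, and Clec1b (CLEC-2) is the C-type lectin receptor for podoplanin.

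On the mm8 coordinates of the array files, the Pf4 probe lies at chr5:91848449-91848508 and the Ppbp probe next to it at chr5:91845144-91845203. The Itga2b probe lies at chr11:102274229-102274437, and the Itgb3 probes lie at chr11:104486448-104486507 (brighter) and chr11:104483266-104483336. The Gp1bb probe lies at chr16:18534577-18534636, Gp5 at chr16:30228008-30228067, Gp9 at chr6:87745297-87745356, Clec1b at chr6:129370890-129370949 and Treml1 at chr17:47832607-47832666. Whether a probe lies in an exon or a UTR was not analysed here.

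All 9 genes were lower in B6 mice and higher in DBA/2 mice at 2 w, as described below, and the letters before their start sites were read. RefSeq promoters on GRCm38.p6 matched 8 of the 9 genes, all but Itgb3. GATAA, letters of the GATA factor motif, was searched on both strands of the 250 bases before the start and is held by 3 of the 8 (Gp9, Gp5 and Clec1b) and by 22.6% of 32851 promoters. GGAAG, letters of the ETS factor motif, is held by 7 of the 8 and by 64.1% of all. The share of promoters with both is 13.2%, and 2 of the 8 (Gp9 and Gp5) hold both. These letters overlap in none of the 3 sequences below, which are shown because they are the members with GATAA. They run 5′ to 3′ on the strand of the gene, and capitals mark GATAA and GGAAG or their reverse complements TTATC and CTTCC.
Gp9, chr6:87777820-87778069, plus strand: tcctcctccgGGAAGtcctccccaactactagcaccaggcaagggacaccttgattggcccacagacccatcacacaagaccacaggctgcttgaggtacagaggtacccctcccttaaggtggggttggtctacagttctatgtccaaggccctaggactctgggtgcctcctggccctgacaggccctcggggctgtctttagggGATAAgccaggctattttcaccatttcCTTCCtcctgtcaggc
Gp5, chr16:30310782-30311031, minus strand: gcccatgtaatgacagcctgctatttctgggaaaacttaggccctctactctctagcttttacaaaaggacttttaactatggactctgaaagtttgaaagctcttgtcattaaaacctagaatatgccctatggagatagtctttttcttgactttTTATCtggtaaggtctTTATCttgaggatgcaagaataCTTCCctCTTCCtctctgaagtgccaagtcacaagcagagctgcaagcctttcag
Clec1b, chr6:129397047-129397296, plus strand: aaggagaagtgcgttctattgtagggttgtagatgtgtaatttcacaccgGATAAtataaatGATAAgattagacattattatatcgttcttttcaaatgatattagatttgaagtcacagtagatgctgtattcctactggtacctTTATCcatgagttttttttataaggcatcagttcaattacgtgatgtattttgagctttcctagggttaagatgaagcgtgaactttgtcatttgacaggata
Clec1b holds GATAA on either strand 3 times and GGAAG 0 times. A match of letters is a description and not a binding site.

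Levels are log2 processed signals minus the 75th percentile of the array. This percentile was computed from 11550 probes that the scanner software called well above background on each of the 19 arrays. A level of 0 is thus that percentile, and a difference of 1 is 2-fold. The 9 brighter or single probes were well above background in all 18 samples and 0 of their spots were saturated, with processed signals from 220.0 to 92559. Each later week was compared with 0 w of the same strain by limma over 22965 probes, with p values adjusted by the Benjamini-Hochberg method and called under 0.05. The comparisons of a strain share its 0 w samples and are not independent of each other. The B6 samples at 2 w and 9 w stand alone and are assumed to vary like the others. In bulk RNA, fewer platelets and less RNA per platelet cannot be told apart. Levels are relative to the other RNA of a sample, and how many platelets stayed on the filter is not known. A level is thus no measure of platelets in the animal.

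Several libraries need a remark before the results. The 2 B6 0 w samples differed by an SD of 0.203 over the 11550 probes and the 2 B6 4 w samples by 0.228, no more than the 0.238 between the 2 arrays of a single RNA (B6 0 w replicate 2), while the other pairs differed by 0.263 to 0.413. One label calls DBA/2 2 w replicate 2 a technical replicate although its title gives a second replicate. The p values therefore measure the spread between these samples, which may be technical. Genes of hepatocytes, which should be absent from blood, were high in B6 mice at 0 w (summed level of 11 genes 47.8 to 49.3) and at 8 w (28.8 to 30.1) and stood at 0.666 to 1.68 in all other samples. Red cell genes summed to between 3010 and 7270 in every sample, T cell genes to 7.33 to 19.7 and B cell genes to 14.5 to 31.5, and the 9 platelet genes to 158 to 621. The lymphocyte and platelet genes are thus both present in the samples labelled leukocyte.

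In B6 mice at 2 w every one of the 9 genes was lower than at 0 w, by 1.19 (Gp1bb) to 1.87 (Itga2b) on the log2 scale, or 2.28-fold to 3.67-fold. In DBA/2 mice at 2 w every one was higher, by 0.40 (Pf4) to 0.78 (Gp1bb). At 4 w all 9 lay above 0 w in both strains, 8 of them past the threshold (6% of all probes passed as higher in B6 mice and 7.49% in DBA/2 mice). At 8 w, 7 of 9 were called higher in B6 mice (11% of all probes) and 3 of 9 in DBA/2 mice (9.95%), although 9 and 8 of them lay above 0 w, and the changes of Itgb3, Gp1bb and Gp9 differed between the strains. The levels of the 9 genes are plotted by week and strain.

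**Figure D1:**
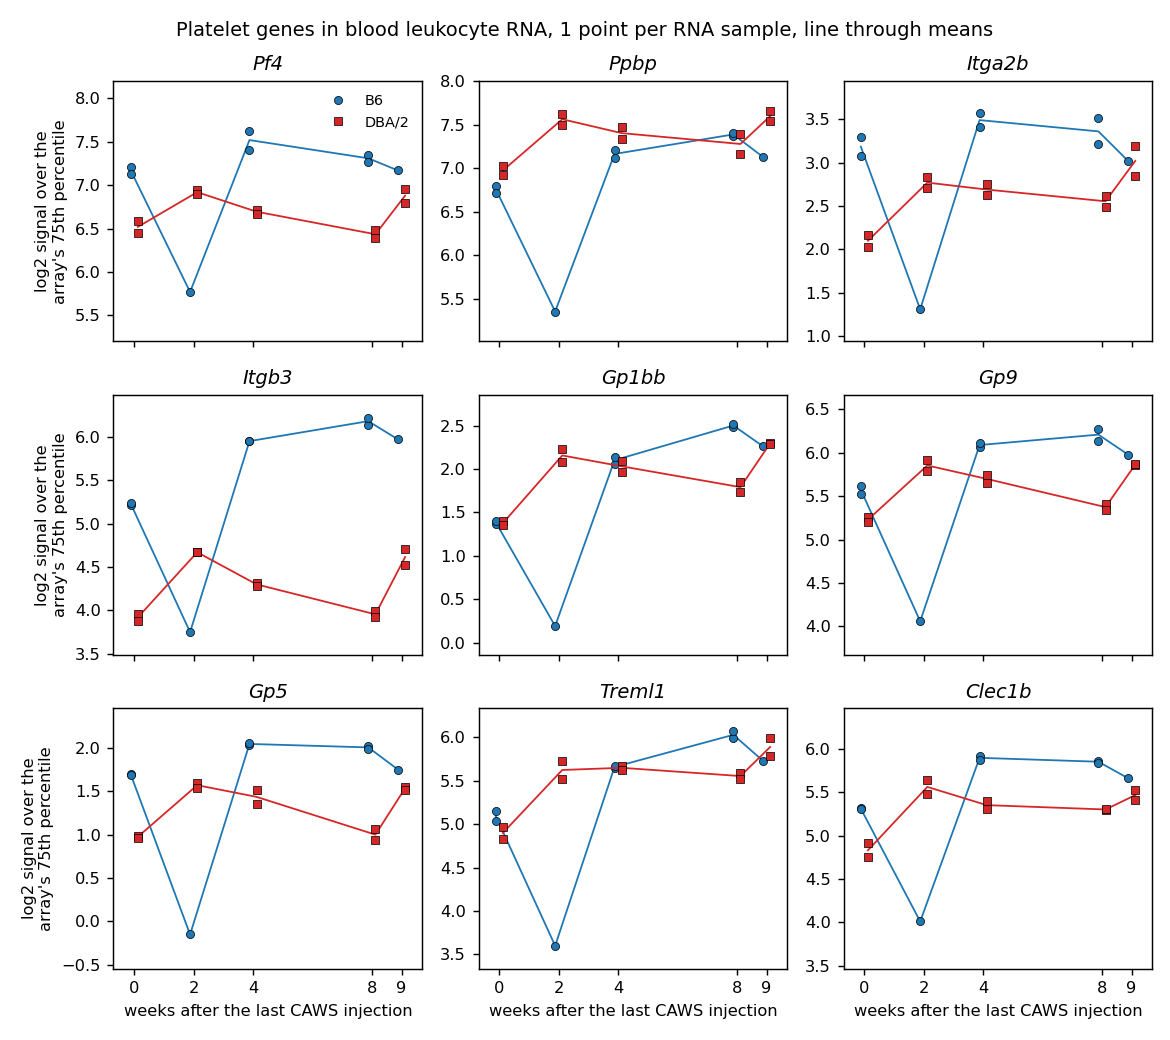
Level of each of the 9 platelet genes (y axis, log2 processed signal over the array's 75th percentile) against weeks after the last CAWS injection, with 1 point per RNA sample, circles for B6 mice and squares for DBA/2 mice, and lines through the group means. The single B6 sample at 2 w is the lowest of the 18 samples for all 9 genes.

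Pf4 in B6 mice had levels of 7.21 and 7.13 (0 w), 5.77 (2 w), 7.63 and 7.41 (4 w), 7.35 and 7.27 (8 w) and 7.17 (9 w). Pf4 in DBA/2 mice had levels of 6.59 and 6.45 (0 w), 6.94 and 6.90 (2 w), 6.72 and 6.67 (4 w), 6.48 and 6.39 (8 w) and 6.96 and 6.80 (9 w). The B6 2 w sample was the lowest, and the B6 samples of the other weeks all lay above every DBA/2 sample. Pf4 fell at 2 w in B6 mice by 1.40 ± 0.12 (SE) and rose by 0.35 ± 0.10 at 4 w (adjusted p = 0.0455). The DBA/2 rises of Pf4 were 0.40 ± 0.10 at 2 w and 0.36 ± 0.10 at 9 w, while 0.18 (4 w) and -0.09 (8 w) missed the threshold. Ppbp in B6 mice had levels of 6.80 and 6.72 (0 w), 5.35 (2 w), 7.21 and 7.12 (4 w), 7.37 and 7.41 (8 w) and 7.13 (9 w). Ppbp in DBA/2 mice had levels of 7.03 and 6.92 (0 w), 7.63 and 7.50 (2 w), 7.47 and 7.34 (4 w), 7.40 and 7.16 (8 w) and 7.66 and 7.54 (9 w). The later DBA/2 samples of Ppbp lay above those of 0 w. Ppbp was the only gene of the set with a positive strain difference at 0 w, of 0.22 in favour of DBA/2 mice (adjusted p = 0.143, not past the threshold). It fell at 2 w in B6 mice by 1.41 ± 0.12 and rose at 8 w by 0.63 ± 0.10 (adjusted p = 0.002). The DBA/2 rises of Ppbp were 0.59 (2 w), 0.43 (4 w) and 0.62 (9 w), and 0.30 at 8 w had an adjusted p of 0.0594.

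The integrin chains differed in their courses. Itga2b in B6 mice had levels of 3.29 and 3.08 (0 w), 1.31 (2 w), 3.57 and 3.41 (4 w), 3.51 and 3.21 (8 w) and 3.02 (9 w). Itga2b in DBA/2 mice had levels of 2.17 and 2.03 (0 w), 2.83 and 2.71 (2 w), 2.75 and 2.63 (4 w), 2.62 and 2.49 (8 w) and 3.19 and 2.85 (9 w). The later DBA/2 samples of Itga2b lay above those of 0 w, while in B6 mice those of 8 w overlapped them. Itga2b had the largest fall of the set, 1.87 ± 0.18 at 2 w in B6 mice, and its later differences there, 0.30 (4 w), 0.18 (8 w) and -0.17 (9 w), missed the threshold. Its DBA/2 rises were 0.67 ± 0.15 (2 w), 0.59 (4 w) and 0.92 (9 w, adjusted p = 0.0016), and its 0.46 at 8 w had an adjusted p of 0.0527. Itgb3 in B6 mice had levels of 5.22 and 5.24 (0 w), 3.75 (2 w), 5.95 and 5.95 (4 w), 6.14 and 6.22 (8 w) and 5.97 (9 w). Itgb3 in DBA/2 mice had levels of 3.96 and 3.88 (0 w), 4.67 and 4.67 (2 w), 4.32 and 4.28 (4 w), 3.99 and 3.92 (8 w) and 4.71 and 4.52 (9 w). The DBA/2 samples lay below every B6 sample except that of 2 w. Itgb3 fell in B6 mice by 1.48 ± 0.10 at 2 w and rose by 0.72 (4 w), 0.95 (8 w) and 0.74 (9 w). Its DBA/2 rises were 0.75 (2 w), 0.38 (4 w) and 0.69 (9 w), with 0.04 at 8 w (adjusted p = 0.813).

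The second Itgb3 probe was dimmer and varied more. Its level in B6 mice was 0.52 and 1.16 (0 w), 0.67 (2 w), 0.65 and 1.29 (4 w), 0.42 and 2.21 (8 w) and 2.31 (9 w). The DBA/2 samples ran from 0.01 to 0.67, with the spot of 9 w replicate 2 marked as an outlier and left out. Replicates 1 and 2 lay up to 1.79 apart on it in B6 mice at 8 w, and none of its comparisons passed the threshold. At B6 2 w it differed from 0 w by -0.17 (SE 0.64), against -1.48 for the brighter probe. The 95% interval of the second probe, -1.63 to 1.29, holds the value of the brighter one.

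**Figure D2:**
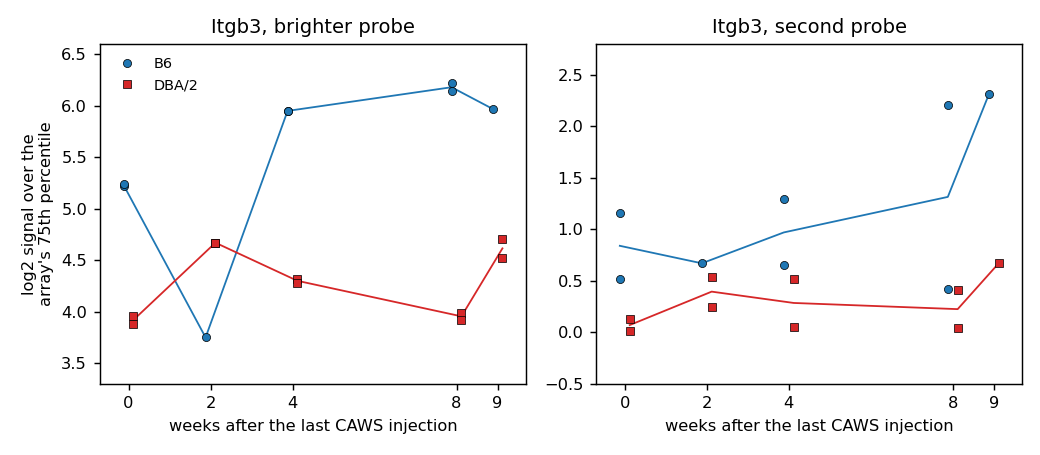
Level of Itgb3 (y axis, log2 processed signal over the array's 75th percentile) on its brighter probe (left) and its second probe (right) against weeks after the last CAWS injection, with 1 point per RNA sample and lines through the means. Replicates lie close together on the left and up to 1.79 apart on the right.

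The GPIb-IX-V genes all fell at 2 w in B6 mice and differed in their later changes. Gp1bb in B6 mice had levels of 1.37 and 1.40 (0 w), 0.19 (2 w), 2.06 and 2.14 (4 w), 2.48 and 2.52 (8 w) and 2.26 (9 w). Gp1bb in DBA/2 mice had levels of 1.40 and 1.35 (0 w), 2.23 and 2.08 (2 w), 2.09 and 1.97 (4 w), 1.85 and 1.73 (8 w) and 2.30 and 2.29 (9 w). At 0 w the strains overlapped, and at 8 w both B6 samples lay above all DBA/2 samples. Gp1bb was called in every comparison with 0 w in both strains, the only gene of the set with Treml1 to be so. It fell by 1.19 ± 0.10 at 2 w in B6 mice and rose by 1.12 ± 0.08 at 8 w, 2.17-fold (adjusted p = 2.22e-05). Gp9 in B6 mice had levels of 5.53 and 5.62 (0 w), 4.06 (2 w), 6.07 and 6.11 (4 w), 6.14 and 6.28 (8 w) and 5.98 (9 w). Gp9 in DBA/2 mice had levels of 5.26 and 5.20 (0 w), 5.92 and 5.79 (2 w), 5.75 and 5.65 (4 w), 5.41 and 5.34 (8 w) and 5.86 and 5.87 (9 w). The 4 w and 9 w samples of both strains lay above their own 0 w samples. Gp9 fell at 2 w in B6 mice by 1.52 ± 0.10 and rose there by 0.51 (4 w), 0.63 (8 w) and 0.40 (9 w). Its DBA/2 rises were 0.62 (2 w), 0.47 (4 w) and 0.64 (9 w), with 0.14 at 8 w (adjusted p = 0.279). Gp5 in B6 mice had levels of 1.70 and 1.69 (0 w), -0.15 (2 w), 2.03 and 2.06 (4 w), 2.02 and 1.99 (8 w) and 1.75 (9 w). Gp5 in DBA/2 mice had levels of 0.99 and 0.96 (0 w), 1.60 and 1.54 (2 w), 1.52 and 1.35 (4 w), 1.06 and 0.94 (8 w) and 1.55 and 1.52 (9 w). The single B6 2 w sample of Gp5 lay below all others. Gp5 fell in B6 mice at 2 w by 1.84 ± 0.098, 3.59-fold (adjusted p = 6.82e-06). It rose there by 0.34 (4 w) and 0.31 (8 w). At 8 w the DBA/2 samples of Gp5 overlapped those of 0 w, and the difference was 0.03 (95% interval -0.15 to 0.21).

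The remaining receptors were Treml1 and Clec1b. Treml1 in B6 mice had levels of 5.04 and 5.15 (0 w), 3.60 (2 w), 5.65 and 5.67 (4 w), 5.99 and 6.07 (8 w) and 5.73 (9 w). Treml1 in DBA/2 mice had levels of 4.97 and 4.83 (0 w), 5.73 and 5.52 (2 w), 5.67 and 5.63 (4 w), 5.59 and 5.52 (8 w) and 5.99 and 5.79 (9 w). Every later DBA/2 sample of Treml1 lay above those of 0 w. Treml1 had the largest rise in DBA/2 mice, 0.99 ± 0.10 at 9 w, or 1.99-fold (adjusted p = 0.000147). It also rose there by 0.73 (2 w), 0.75 (4 w) and 0.66 (8 w). B6 mice gave -1.50 (2 w), 0.56 (4 w), 0.93 (8 w) and 0.64 (9 w), all past the threshold. Clec1b in B6 mice had levels of 5.32 and 5.30 (0 w), 4.01 (2 w), 5.92 and 5.87 (4 w), 5.86 and 5.84 (8 w) and 5.66 (9 w). Clec1b in DBA/2 mice had levels of 4.91 and 4.75 (0 w), 5.64 and 5.48 (2 w), 5.40 and 5.30 (4 w), 5.29 and 5.31 (8 w) and 5.52 and 5.41 (9 w). The DBA/2 0 w samples lay below all samples but that of B6 2 w. Clec1b rose at every later week in DBA/2 mice, by 0.73, 0.52, 0.47 and 0.64. It fell in B6 mice by 1.30 ± 0.11 at 2 w and rose by 0.59 (4 w) and 0.54 (8 w). Its 0.36 at B6 9 w had an adjusted p of 0.0752.

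Ordered by level over the 10 groups, neighbouring groups overlapped in their samples in 1 (Gp9) to 5 (Itga2b and Ppbp) of 9 neighbour pairs. The group means of a gene spanned 1.74 (Pf4) to 2.43 (Itgb3 and Treml1) on the log2 scale, and the B6 2 w sample stood at the bottom of the order for all 9 genes.

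**Figure D3:**
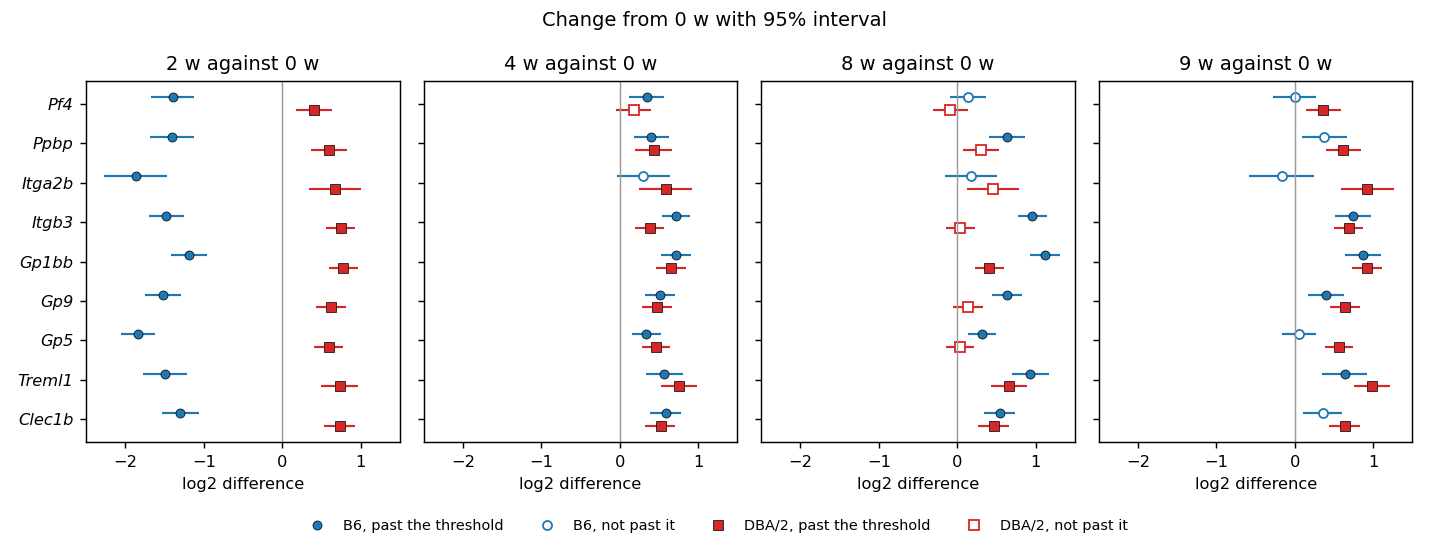
Difference from 0 w of the same strain on the log2 scale (x axis) with its 95% interval from limma for the 9 genes in 4 panels, 1 per later week, circles for B6 mice and squares for DBA/2 mice, filled where past the threshold. At 2 w the strains lie on opposite sides of 0, B6 2 w being a single sample.

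In DBA/2 mice, 9 of the 9 genes were called higher at 2 w, where 7.88% of all tested probes were, with a median difference of 0.67 (1.60-fold) against -0.05 over all probes. The median was 0.67 and 0.68 within the 2 slides that hold both weeks. At 4 w, 8 of 9 were higher (7.49% of all probes), with a median of 0.47 against -0.10. At 8 w 3 of 9 were higher, namely Clec1b, Gp1bb and Treml1 (9.95% of all probes), with a median of 0.30 against -0.18. The count was 5 with the slide or the replicate number as a block, the median of each array, a floor of 10 or the filter at 9 samples, and 6 with the percentile over all probes. At 9 w 9 of 9 were higher (13.3% of all probes), with a median of 0.64 against -0.03, but no slide holds both 9 w and 0 w samples of DBA/2 mice, so that slide and week cannot be told apart there. None of the 9 was called lower at any week. The calls depended on how the signal was processed. Normexp started from pixel values with an offset of 50 and without the scanner software's removal of trends within the array. It thus changed more than the background correction. With normexp on the pixel values 0 (2 w), 1 (4 w), 1 (8 w) and 3 (9 w) genes were called, with medians of 0.64, 0.50, 0.34 and 0.35. Over all probes the medians with normexp were 0, -0.12, -0.08 and 0.78, so that at 9 w the 9 genes had the lower median. The share of all probes called with normexp is not given here. Without DBA/2 2 w replicate 2 the count at 2 w was 7. At 4 w, 5 were called when DBA/2 4 w replicate 1, DBA/2 4 w replicate 2 or DBA/2 0 w replicate 2 was left out.

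In B6 mice, 9 of the 9 genes were called lower at 2 w, where 7.68% of all tested probes were, with a median of -1.48 (2.78-fold) against 0.08 over all probes. It was -1.45 on the slide that holds both weeks, and against B6 4 w, where hepatocyte genes were as low as at 2 w, 9 platelet genes were also lower, with a median of -2.03. The same sample had 43.3% of its spots well above background, within the range of 33.9% to 51.4% of all arrays, and its T cell genes summed to 19.7 against 18.1 and 18.3 at 0 w. Its B cell genes summed to 30.5 against 22.2 in both 0 w samples, and its neutrophil genes to 191 against 57.7 and 57.6. At 4 w, 8 of 9 were higher, all but Itga2b (6% of all probes), with a median of 0.51. At 8 w, 7 of 9 were higher, all but Itga2b and Pf4 (11% of all probes), with a median of 0.63. At 9 w 4 of 9 were higher, namely Gp1bb, Itgb3, Treml1 and Gp9 (5.47% of all probes), with a median of 0.37. With the B6 0 w pair and the B6 4 w pair each counted as 1 sample, the counts were 2 (4 w), 6 (8 w) and 2 (9 w). At 4 w, normexp left 0 called, and 4 or 5 were called when B6 4 w replicate 1, B6 0 w replicate 1 or B6 0 w replicate 2 was left out. At 9 w normexp left 0, and 2 without B6 0 w replicate 1. In the comparisons of 2, 4 and 9 w with 0 w, 11 of 11 hepatocyte genes were lower, and their part in these results was not tested.

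Of the differences between the strains in the change at 4 w, 0 of 9 genes passed the threshold in limma (11.7% of all probes passed) and 1, Itgb3, was under 0.05 unadjusted. The differences ran from -0.34 (Itgb3, 95% interval -0.60 to -0.08) to 0.28 (Itga2b, -0.19 to 0.76). At 8 w, 3 of 9 were lower in DBA/2 than in B6 mice (10.3% of all probes were): Itgb3 by 0.92 ± 0.12 (adjusted p = 0.000806), Gp1bb by 0.71 ± 0.12 (adjusted p = 0.00351) and Gp9 by 0.49 ± 0.12 (adjusted p = 0.0206). Clec1b, with -0.07 (-0.35 to 0.21), and Itga2b, with 0.28 (-0.19 to 0.75), were at the other end. Normexp left 0 called, quantile normalization 5, and the adjusted p of Gp9 was 0.0807 with the B6 pairs counted as 1 sample each.

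At 0 w, right after the last injection, 6 of 9 genes were lower in DBA/2 than in B6 mice (15.4% of all probes were): Itgb3 by 1.31, Itga2b by 1.08, Gp5 by 0.72, Pf4 by 0.65, Clec1b by 0.48 and Gp9 by 0.34. Gp1bb, with -0.01, and Treml1 and Ppbp, with -0.20 and 0.22, missed the threshold. Normexp left 2 called, with a median of -0.33 for the 9 genes against -0.44 over all probes. With normexp the 9 genes thus did not lie lower than the median probe. Quantile normalization gave 3 lower and 1 higher. No slide holds 0 w samples of both strains, so that slide and strain cannot be told apart, and hepatocyte genes were lower in DBA/2 mice in 11 of 11. The direction rested on the scaling. In the authors' value table without scaling, all probes shifted by a median of 0.89 toward DBA/2 mice, and 5 of the 9 genes were then called higher and 1 lower. Relative to the 0.89 of the median probe, 8 of the 9 genes lay lower in DBA/2 mice. Taking off that shift is itself a scaling of the arrays, so that this count adds nothing to the main fit. The share of all probes called in that table is not given here. In the same table the median probe shifted by 0.98 at 8 w in B6 mice and by -1.26 in the strain difference at 8 w.

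**Figure D4:**
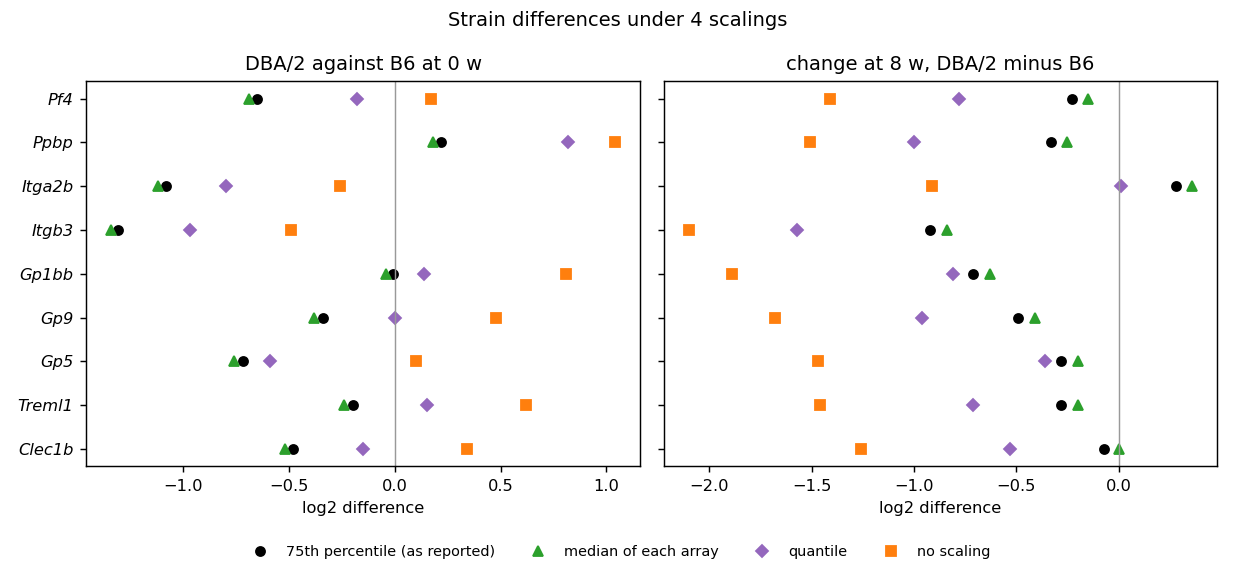
Difference between DBA/2 and B6 mice at 0 w (left) and difference between their changes at 8 w (right) on the log2 scale (x axis) for the 9 genes under 4 scalings of the arrays. Without scaling the points at 0 w move to higher and those at 8 w to lower values, by about the shift of the median probe (0.89 and -1.26).

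Other platelet and megakaryocyte genes were counted in 4 lists: receptors, granule and secreted proteins, cytoskeleton and signalling proteins, and megakaryocyte transcription factors. The lists were drawn up from general knowledge, but with earlier results of these data known. In B6 mice at 2 w, 13 of 20 tested receptor genes were lower and 1 higher, 13 of 19 granule genes were lower and 0 higher, and 20 of 23 cytoskeleton genes were lower and 0 higher, where 7.68% of all probes were lower and 5.26% higher. The medians were -1.15, -1.18 and -1.34, against 0.08 over all probes. The transcription factors were mixed, with 5 of 16 lower and 2 higher and a median of -0.14. In DBA/2 mice at 2 w, 12 receptor genes were higher and 0 lower, 12 granule genes were higher and 1 lower, and 16 cytoskeleton genes were higher and 0 lower, with 4 factors higher and 2 lower. Over all probes 7.88% were higher and 7.81% lower, and the list medians were 0.51, 0.46, 0.49 and 0.06 against -0.05. At 8 w in DBA/2 mice the lists were mixed, with 6 receptor genes higher and 4 lower, 6 and 2 of the granule genes, 2 and 2 of the cytoskeleton genes, and 1 and 6 of the factors. Over all probes 9.95% were higher and 14% lower, and the list medians were -0.11, 0.10, -0.02 and -0.33 against -0.18.

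Vwf, which encodes von Willebrand factor, fell by 1.63 at 2 w in B6 mice and rose there by 0.73 at 8 w, against 0.02 at 8 w in DBA/2 mice (difference of the changes -0.71, adjusted p = 0.00448). Gp6, the collagen receptor, rose at all 4 weeks in DBA/2 mice by 0.72 to 0.82. Selp, or P-selectin, rose at all 4 weeks too, by 0.46 to 0.95. B6 mice also had higher levels at 8 w. The mean of Gp6 there was 1.39 (0 w), 0.19 (2 w) and 2.47 (8 w), and that of Selp -1.15, -1.62 and -0.12. P2ry12, the ADP receptor, fell by 0.76 at 8 w in DBA/2 mice and by 1.42 at 2 w in B6 mice.

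Slc6a4, the serotonin transporter, fell by 1.61 at 2 w in B6 mice and rose by 0.92 at 2 w in DBA/2 mice. F13a1, the coagulation factor XIII A chain that monocytes also express, rose by 1.76 at 8 w in B6 mice and by 0.66 in DBA/2 mice. Fcer1g, the FcR gamma chain of GPVI that myeloid cells share, rose by 1.40 at 8 w in DBA/2 mice, beside monocyte genes of which 9 of 10 were higher. Tbxas1, Mylk and Rgs18 fell by 1.40, 1.38 and 1.38 at 2 w in B6 mice. P2rx1, an ATP-gated channel, rose at 8 w by 1.05 in DBA/2 mice and by 0.83 in B6 mice, and was not well above background in the B6 2 w sample. Among the transcription factors, Gata1 did not pass at 2 w in B6 mice (-0.27, adjusted p = 0.0562), Gata2 fell by 1.11 and Nfe2 by 0.63 (adjusted p = 0.0182). In DBA/2 mice Gata2 rose by 0.40 at 4 w and fell by 0.56 at 8 w, and Ets1, which T cells express, fell by 0.85 at 8 w. Pdgfa fell by 0.46, Vps33b by 0.67 and Jam3 by 1.48 ± 0.44 at 8 w in DBA/2 mice. Apart from Gata1 and Nfe2, the genes of this paragraph were picked for large called changes at that week in DBA/2 mice. Those changes are thus large by selection. In B6 mice the difference of Jam3 at 8 w was 2.33, but only 1 of the 2 B6 0 w samples was well above background.

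**Figure D5:**
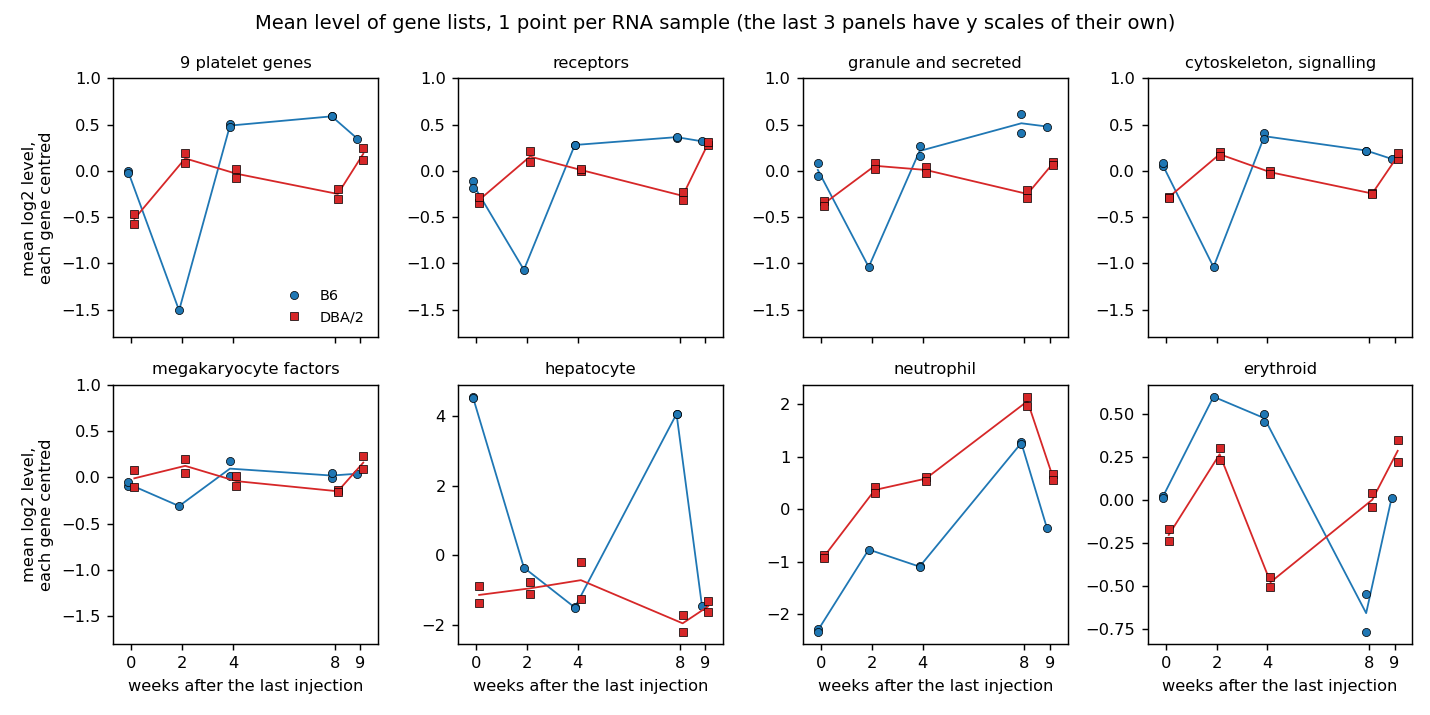
Mean level of each gene list (y axis, log2, each gene centred on its mean over the 18 samples) against weeks after the last CAWS injection, with 1 point per RNA sample and lines through the means. The 9 genes and the receptor, granule and cytoskeleton lists are lowest in the B6 2 w sample, the hepatocyte genes are high at B6 0 w and 8 w, and the neutrophil genes peak at 8 w in both strains.

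Over the 18 samples, Gp9 followed the mean of the other members most closely (Pearson r = 0.986), then Clec1b (0.981), Gp5 (0.964) and Itga2b (0.925). Pf4 (0.895), Gp1bb (0.886) and Treml1 (0.879) followed, and Itgb3 (0.717) and Ppbp (0.702) were least like the others. Without the B6 2 w sample, r over 17 samples was 0.271 for Ppbp, 0.726 for Treml1, 0.75 for Gp1bb and 0.813 for Itgb3. The order thus rests in part on that single sample. Among all tested probes, the profiles most like the mean of the 9 genes were those of Pdlim7 (r = 0.991), Tgfb1i1, Vwf (0.986 over 18 and 0.993 over 17 samples), Gas2l1, Myl9, Ptpn11, Itgb1, Cavin1, Cds2 and Gatad1 (0.976). The samples share slides and scaling, and r is given as a description.

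Other cell types moved beside the platelet genes. Neutrophil genes rose in every week in both strains, with 10 or 11 of 11 higher, and summed to 707 to 788 in DBA/2 mice at 8 w against 107 to 108 at 0 w. The summed level of the 9 platelet genes in the same samples was 379 to 415 against 324 to 352. In B6 mice the 9 genes summed to 158 at 2 w, where red cell genes rose in 6 of 11 and fell in 1, against 422 to 431 at 0 w. Monocyte genes were higher in 9 of 10 in DBA/2 mice at 4, 8 and 9 w and in B6 mice at 8 w, and summed to 38.9 to 40.2 in DBA/2 mice at 8 w against 13.7 to 13.9 at 0 w. T cell genes were lower in 8 of 10 in DBA/2 mice at 8 w and 9 w. B cell genes fell in DBA/2 mice in 8 of 10 at 2 w and at 9 w, in 6 at 4 w and in 7 at 8 w. Endothelial genes were low throughout, with a sum of 0.775 to 2.31, and 0 of the 7 tested changed in DBA/2 mice. The part of these cell types in the platelet results was not tested.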

How the data were processed

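Gene expression was measured in 18 leukocyte RNA samples, 1 or 2 in each of 10 groups of strain and week, on 19 single-color Agilent arrays. The deposited processed signal is an intensity from which Agilent Feature Extraction 9.5.3.1 (submitters' processing notes) had subtracted background and removed trends within the array. It is not normalized between arrays. The deposited value table equals it within 1% for 100% of the values. Control and outlier spots were left out, spots of a probe were averaged, and so were the 2 arrays of 1 RNA. Log2 intensities were scaled to each array's 75th percentile. Probes that 2 or more of the 18 samples showed well above background (22965 of 41174) entered a fit in limma 3.58.1 under R 4.3.3 (lmFit, contrasts.fit and eBayes, 8 residual and 1.37 prior degrees of freedom), with Benjamini-Hochberg adjustment over all tested probes and a threshold of 0.05. The number of arrays limits the precision. Probes were named by accession (24375), gene name (6301) or synonym (2426), and 8072 kept the array's name. Plots were made with Python 3.11.15, and the procedure was tested on simulated data.

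The members, gene lists and tests were chosen with earlier results of these data known. Named beside the 9 genes are Vwf, Selp, Gp6, Tubb1, Gata1 and Nfe2 and, from each of 4 platelet lists, the 2 largest rises and 2 largest falls at 8 w in DBA/2 mice among those called. Tubb1 had no matched probe, and some genes that this rule takes are not reported here. The 10 most alike genes were ranked by Pearson r.

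The alternatives were normexp (offset 50), quantile, per-array median and all-probe percentile scaling, the unscaled value table, a floor of 10, a filter at 9 samples or none, outlier spots kept, replicate or slide as a block, either array of the shared RNA alone, array weights, each strain alone, the mean of a gene's probes and each sample left out. Chosen after seeing the data were B6 4 w as the reference of B6 2 w and the B6 0 w and 4 w pairs counted as 1 sample each. Replicate numbers, which coincide with scan days, were not taken to pair the samples (see the closing section).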

Additional observations from a re-analysis of the deposited data

Results flagged for a closer look

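The changes from 0 w to 8 w differed between DBA/2 and B6 mice by limma's interaction test for 3 of the 9 genes. The difference, DBA/2 minus B6, was -0.92 for Itgb3, -0.71 for Gp1bb and -0.49 for Gp9 on the log2 scale. Each gene lay higher at 8 w than at 0 w in both B6 samples. Gp9 and Itgb3 were not past the threshold at 8 w in DBA/2 mice, while Gp1bb rose there too, by 0.41.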

How the results depend on the processing

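The share of all probes called under an alternative is not given here, so that no count below can be set against it. The fall of the 9 genes in B6 mice at 2 w was called under every alternative, with 8 or 9 of them lower. Elsewhere the number of genes called moved. With normexp it was 0 (2 w), 1 (4 w), 1 (8 w) and 3 (9 w) in DBA/2 mice, 0 (4 w) and 0 (9 w) in B6 mice, 0 for the strain difference of the change at 8 w and 2 for the strains at 0 w. With quantile normalization it was 5 (9 w) in DBA/2 mice, 2 (4 w) and 2 (9 w) in B6 mice and 5 for the change at 8 w. In the unscaled value table it was 5 (2 w), 1 (8 w) and 4 (9 w) in DBA/2 mice, 5 (4 w) and 8 (9 w) in B6 mice and 9 for the change at 8 w. Over all probes the median then shifted from -0.44 (DBA/2 9 w) to 0.98 (B6 8 w), and with normexp it was 0.78 for DBA/2 9 w and -0.63 for B6 8 w. For DBA/2 mice at 8 w, 5 genes were called with the median of each array, a floor of 10, the filter at 9 samples or the slide as a block, and 6 with the percentile over all probes. Without a filter on dim probes 3 were called for DBA/2 4 w, 4 for B6 4 w and 2 for B6 9 w. With each strain alone it was 4 and 2 for these B6 weeks, and with the B6 pairs as 1 sample each 2 and 2. The slide as a block gave 1 for the change at 4 w. With 1 sample left out the counts were 7 to 9 (2 w), 5 to 8 (4 w), 3 to 4 (8 w) and 8 to 9 (9 w) in DBA/2 mice, 9 to 9, 4 to 8, 6 to 7 and 2 to 4 in B6 mice, 0 and 2 to 3 for the changes at 4 w and 8 w, and 5 to 6 at 0 w. Among values called in the main fit or in the alternative, signs turned for 11. Values that changed sign but were called in neither are counted below as keeping their side of the threshold. With quantile normalization, Pf4 was at -0.20 and Ppbp at -0.08 for DBA/2 9 w. In the unscaled table, Pf4 was at -0.07 for DBA/2 9 w and at 0.45 for B6 9 w, Itga2b at -0.91 for the change at 8 w, and at 0 w Clec1b was at 0.34, Gp1bb at 0.81, Gp5 at 0.10, Gp9 at 0.48, Pf4 at 0.17 and Treml1 at 0.62. The cause was not tested. For single genes, outside the fits that leave out a sample, 1463 values kept their side of the threshold, 134 lost it and 39 gained it in the same direction. The slide block gave no value for DBA/2 mice at 9 w or for the strains at 0 w.

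Samples of 1 replicate number correlated by -0.0102 to 0.456 in their deviations over 28 pairs of groups, 12 of them over 0.1 (9 of 13 within a strain, with a median of 0.334, and 3 of 15 between strains). Not every pair was over 0.1, so that the number was not taken to pair the samples. In DBA/2 mice, however, replicate 1 lay above replicate 2 for each of the 9 genes at each week, except Clec1b at 8 w and Gp9 at 9 w. The main fit does not remove this difference. The arrays of replicate 1 were scanned on one day and those of replicate 2 on another, so that the block is also one for scan day. With the replicate number as a block, 5 of the 9 genes were called at 8 w in DBA/2 mice in place of 3, and the counts of the other comparisons stayed within 1.5 times.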
